A study of Mus musculus with 4 samples.

Results

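The cytosolic ribosome of the mouse holds a set of proteins encoded by the Rpl genes (large subunit) and the Rps genes (small subunit), and the expression of these genes was followed across 4 bones. The genes were found by the names of their probes, Rpl or Rps with a number, with the Rps6k kinases left out, since they phosphorylate a ribosomal protein and are not part of the ribosome. This gave 130 of 41174 probes and 77 of 27594 genes, 46 of the large and 31 of the small subunit. Genes with other names, such as Rplp0, Rpsa and Rpl36al, lie outside this rule and are given separately.

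Total RNA came from ilium, femur, maxilla and mandible of male C57BL/6 mice aged 35 days, and the labels give no treatment and no genetic change. Each bone was measured on 1 array with 1 dye. The maxilla and mandible are called jaw bones here, and the ilium and femur trunk and limb bones. The number of animals behind each RNA is not given in the labels. The p-values below set the difference between classes against the spread between bones of 1 class, and not between animals. With 1 array a bone, that spread also holds array noise.

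Ribosomal proteins are made in near equal numbers and assembled on ribosomal RNA in the nucleolus, and their messages are among the most abundant of a cell. Many of these messages begin with a C followed by a run of pyrimidines, the terminal oligopyrimidine tract, through which mTOR signalling and Larp1 control their translation. Inherited loss of 1 copy of several ribosomal protein genes causes Diamond-Blackfan anaemia, a failure of red cell formation in the marrow.

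The starts of 10 genes are shown because they include the genes that differed most and least between the bones. They are the 5 genes lowest in the jaw relative to the trunk and limb bones (Rpl3l, Rps26, Rps9, Rpl14 and Rps10), 2 of the 5 highest (Rpl27a and Rpl22l1) and the 3 with the smallest range over the bones (Rpl10a, Rps15a and Rpl27). Each sequence has 14 bases before and 16 bases from the start listed by RefSeq on GRCm38.p6, and capitals mark a C within 10 bases of that start with at least 4 pyrimidines after it.
Rpl3l: agtgttctagctctgtcatttgaCCTCTgg
Rps26: tcgggcaagccgccggatCCTCTTTCgagt
Rps9: ccgccttgtCTCTCTTTgtctcgggcctga
Rpl14: ggcgggCCCTCTCTCTTCTCgctgagcgcc
Rps10: cgccgcgcacgCCCCTTCCTTTCCagcctc
Rpl27a: acttcgtgagCTCCTCCCTTTTCCCTTTCT
Rpl22l1: tgcggcgcaagcccgttCTCTTCCCacggc
Rpl10a: tggcgCCCCCCCagcggccgcaaactgcag
Rps15a: tctctttctgccatCTTCCCTCgccggtga
Rpl27: cgctctgttcctgtctgctgctcgtgctgc
On the plus strand these windows lie at chr17:24727812-24727841 for Rpl3l, chr7:3704027-3704056 for Rps9, chr9:120571503-120571532 for Rpl14, chr7:109519181-109519210 for Rpl27a, chr3:28805494-28805523 for Rpl22l1, chr17:28328457-28328486 for Rpl10a and chr11:101442231-101442260 for Rpl27. On the minus strand they lie at chr10:128626491-128626520 for Rps26, chr17:27635229-27635258 for Rps10 and chr7:118116132-118116161 for Rps15a. The tract was longest in Rpl27a, with 20 bases, and Rpl27 had no such tract in this window.

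Across the family, 58 of the 77 genes had an entry in the RefSeq promoter table. Of these 58 genes, 36 had a start with such a tract, or 62.1%, against 34.4% of all 27025 genes in the table. The letters CCGGAAG, the core bound by ETS factors, stood on either strand in the window from 250 bases before to 50 after the start of 39.7% of the ribosomal protein genes and of 9.93% of all genes. GCCATCTT, found at YY1 sites, stood in 10.3% against 3.19%, and TATAAA in 10.3% against 15.7%. The 36 genes with a tract had a median difference between jaw and trunk and limb bones of -0.04 on the log2 scale, with a range from -1.33 to 0.49. The 22 genes without one had a median of 0.07 and a range from -0.54 to 0.35, so both sets lay about 0.

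Each value is the log2 processed signal of a probe from which the 75th percentile of its array was subtracted. A probe's brightness depends on its sequence, so values are compared between bones for 1 gene and not between genes. The 75th percentile of the signal was 1142, 1208, 809 and 1142 in ilium, femur, maxilla and mandible, and 72.8% to 75.5% of spots were well above background. All 77 genes were well above background on all 4 arrays, 0 spots were saturated and 0 of their spots were marked as outliers. Of the 130 probes, 127 passed the filter of 2 arrays above background, and the 3 that did not belong to Rpl35a, Rps19 and Rps2, which other probes measured.

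The labels of the tissues were checked on marker genes, with the levels of a list summed as multiples of the 75th percentile. The 12 osteoblast and osteocyte genes, Col1a1 and Bglap among them, were above background in every bone, summed to 528 in ilium, 461 in femur, 690 in maxilla and 641 in mandible, and 0 of 12 were called. Tooth and epithelial genes were higher in the jaw bones, with 4 of 8 tooth matrix genes and 7 of 9 epithelial genes called by limma. Tooth matrix genes summed to 0.383 and 0.191 in ilium and femur against 96.2 and 263 in maxilla and mandible, and in neither ilium nor femur were Enam, Mmp20, Amtn and Odam above background, nor was Dspp in the femur. Epithelial genes summed to 5.11 and 5.34 against 93.7 and 124, and Krt15 was above background in neither ilium nor femur. Enam, Mmp20, Amtn, Odam and Krt15 passed the filter through the jaw arrays alone, so any limma call of them is no check of the labels. The 6 secretory genes of nose and salivary gland summed to 519 in the maxilla and to at most 0.490 in the other bones, and 0 of 6 were called. Of these 6, Dcpp1 was above background in neither ilium nor femur, nor were Cyp2a5, Aqp5 and Bpifa1 in the femur. Marrow genes were higher in ilium and femur, with 11 of 12 erythroid, 7 of 11 neutrophil precursor and 9 of 12 B lymphocyte genes lower in the jaw by limma, all of them above background in all bones. Erythroid genes summed to 667 and 716 in ilium and femur against 352 and 363 in maxilla and mandible, neutrophil genes to 920 and 919 against 575 and 428, and B lymphocyte genes to 74.6 and 88.1 against 23.2 and 22.5. In whole bones, fewer cells of a type and less RNA per cell cannot be told apart.

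The first comparison asked whether ribosomal protein genes differ between jaw bones and trunk and limb bones. None passed the test: limma with Benjamini-Hochberg adjustment over 20617 genes called 0 of the 77, against 11.8% of all genes tested (7.25% lower and 4.51% higher in the jaw), and the lowest adjusted p was 0.0900 for Rps9. At an unadjusted p under 0.05 there were 2 of 77 genes, Rps26 and Rps9, against 34.3% of all genes. A difference below 0 was found for 41 of 77 genes, against 51.3% of all genes. The median difference of the 77 genes was -0.02, against -0.03 for all genes, and became 0.10 with quantile normalization, -0.27 with median centring and -0.28 in the deposited series table. The median of all genes was -0.28 with either of the last choices. Relative to all genes, the median of the family was 0.01 in the main values. Median centring and the series table shift a whole array by 1 constant, so they cannot change that value. The relative median was 0.19 with quantile normalization, -0.10 with normexp background correction and -0.11 with no filter on background. Their quartiles were -0.17 and 0.10, against -0.60 and 0.66 for all genes, and the median absolute difference was 0.14 against 0.63. A difference of the typical ribosomal protein gene was known to within 0.59 on the log2 scale (95% interval, 1.51-fold either way), and for 65 of 77 genes the whole interval lay within 2-fold. The test therefore leaves small differences of single genes undetermined. For genes with wider intervals, such as Rps26 (-2.05 to -0.12), it leaves differences past 2-fold undetermined too.

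**Figure D1:**
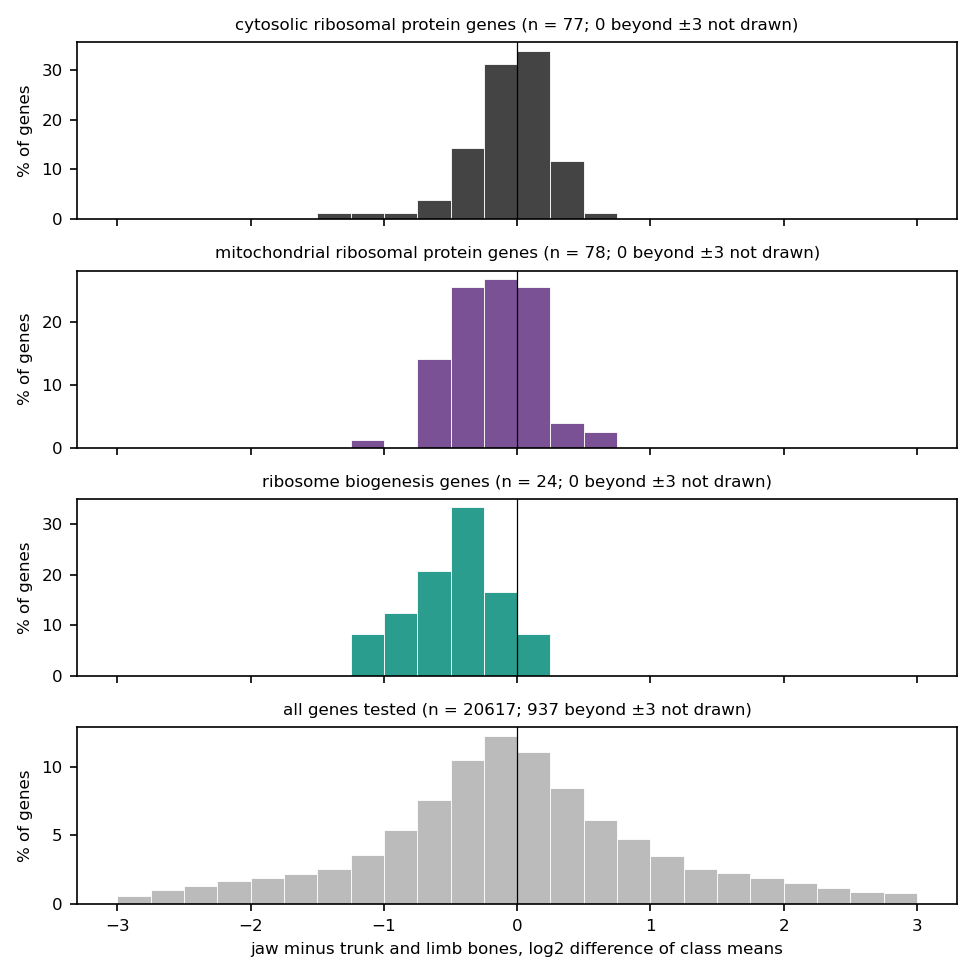
Share of genes (percent, vertical axis) by log2 difference between jaw bones and trunk and limb bones (horizontal axis, bins of 0.25) for the 77 cytosolic ribosomal protein genes, 78 mitochondrial ribosomal protein genes, 24 ribosome biogenesis genes and all 20617 genes tested. The cytosolic genes lie narrowly about 0, with quartiles of -0.17 and 0.10, and the biogenesis genes lie mostly below it, with a median of -0.43.

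The values of most genes lay close together over all bones. The highest and lowest of the 4 bones were within 0.5 on the log2 scale for 58 of the 77 genes, or 75.3%, against 18% of all genes. Among lists described below, the share was 64.3% for elongation factors and other tract messages, 57.7% for mitochondrial ribosomal proteins and 29.2% for ribosome biogenesis. The family was also brighter, with a median of 6.34 in the ilium against -1.02 for all genes, and the part of brightness was not tested. A range of 1 or more was found for 2 genes, Rpl3l (3.04) and Rps26 (1.48), or 2.60% of the family against 54.2% of all genes. In the same 3 lists that share was 0%, 3.85% and 29.2%. Rpl10a varied least, with 4.27 in ilium, 4.27 in femur, 4.22 in maxilla and 4.23 in mandible, a range of 0.052. Rps15a was 6.06, 6.00, 6.01 and 6.01 in the same order, a range of 0.060, and Rpl27 had a range of 0.099. The family was not uniform in sign: both jaw bones lay below the ilium and femur for 28 genes (36.3% of all genes did so) and above them for 18 (31.9% of all genes). These counts moved with the scaling, to 54 and 7 when each array was centred on its median and to 13 and 37 with quantile normalization. The median of all genes moved too, to -0.28 and -0.09. Shares of all genes under these scalings are not given here, so the moved counts are not read as a trait of the family. With a gap of at least 1 between the classes there were 0 genes below and 0 above, against 9.82% and 9.34% of all genes.

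**Figure D2:**
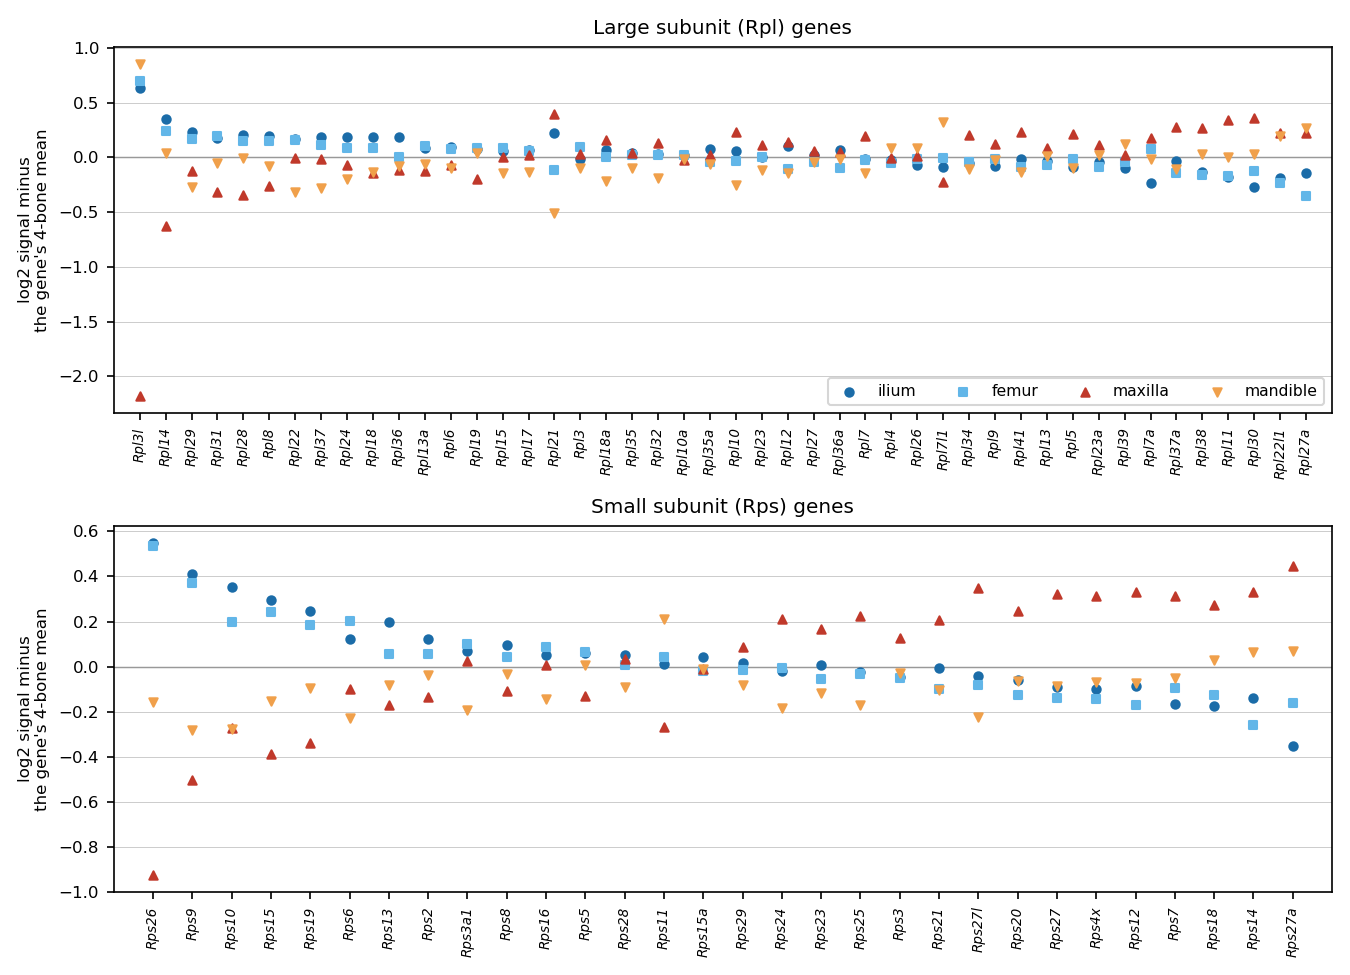
Log2 signal of the ribosomal protein genes (all but 1) in the 4 bones (1 point a bone) minus the gene's own mean over the bones, for large subunit genes (top) and small subunit genes (bottom), ordered by the difference between jaw and trunk and limb bones. Rpl3l in the maxilla stands farthest from its mean, the ilium and femur points nearly coincide for most genes, and Rps26 and Rps9 are lowest in the maxilla.

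By subunit, the 46 large subunit genes had a median difference of -0.03 and the 31 small subunit genes one of -0.00. The values became 0.10 and 0.04 with quantile normalization, -0.28 and -0.26 with median centring, and -0.29 and -0.26 in the series table. The 5 lowest and 5 highest genes of the family, described next, included both subunits.

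Rps26 encodes a small subunit protein at the exit of the messenger RNA channel. It measured 5.87 in the ilium, 5.85 in the femur, and 4.39 and 5.16 in maxilla and mandible (probe on mm8 chromosome 10, 128028256 to 128029040). Both jaw bones were below both other bones, and the maxilla was lowest. The difference was -1.09 ± 0.34 (SE, 2 bones per class), a 2.12-fold lower mean in the jaw that did not pass the limma test (adjusted p = 0.118). Rps9, a small subunit protein near the entry of the same channel, measured 5.78, 5.74, 4.86 and 5.09 in the order ilium, femur, maxilla and mandible (chromosome 7, 3307742 to 3307801). Its classes did not overlap either, and the difference was -0.78 ± 0.21 with an adjusted p of 0.0900 by limma. Rps10, a small subunit protein that is ubiquitinated when ribosomes collide, measured 5.63, 5.47, 5.00 and 5.00, with both jaw bones alike and below the others (-0.55 ± 0.20, limma adjusted p = 0.149). Rpl14, of the large subunit, measured 1.02, 0.91, 0.05 and 0.71, and its maxilla value stood apart (-0.59 ± 0.31, limma adjusted p = 0.266).

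Rpl3l encodes the paralog of Rpl3 that is known from heart and skeletal muscle, where it takes the place of Rpl3 near the peptidyl transferase centre. It measured 2.95 in ilium, 3.01 in femur, 0.14 in maxilla and 3.17 in mandible (chromosome 17, 24463068 to 24463336). Only the maxilla was low among the 4 bones, and the classes overlapped (-1.33 ± 1.12, limma adjusted p = 0.459). Rpl3 itself measured 5.74, 5.85, 5.79 and 5.66, with a range of 0.192. The 13 skeletal muscle genes, all above background in every bone, were lowest in the maxilla too, for 13 of 13. They summed to 1221 in ilium, 1199 in femur, 265 in maxilla and 1057 in mandible. Of these 13, Myh7, Myl2 and Tnni1 of slow muscle were called lower in the jaw, and unlike Rpl3l they were low in the mandible too. Myh7, the slow myosin heavy chain, measured 5.84, 5.69, -0.91 and 0.26, whereas Actn3 of fast fibres measured 5.58, 5.60, 1.25 and 4.43. The part of muscle RNA in the Rpl3l value was not tested.

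**Figure D3:**
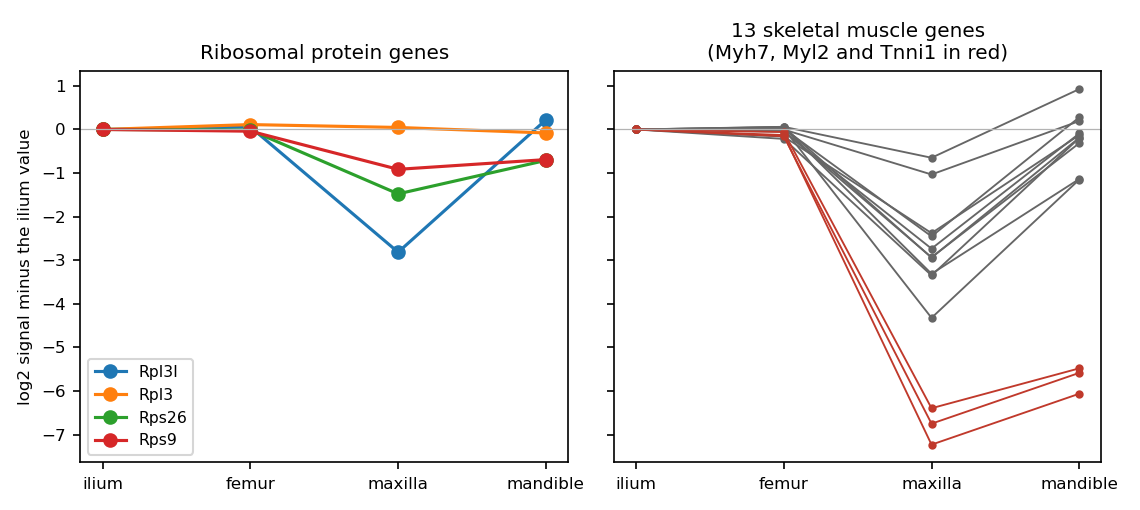
Log2 signal minus the value in the ilium (vertical axis) for Rpl3l, Rpl3, Rps26 and Rps9 (left) and for 13 skeletal muscle genes (right) in the 4 bones, with lines joining the values of 1 gene. Rpl3l and the muscle genes are lowest in the maxilla, Rpl3 stays near 0, and Myh7, Myl2 and Tnni1 (red) are low in both jaw bones.

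In the other direction, Rps27a, whose product is made as a fusion with ubiquitin, measured 4.89 in ilium, 5.08 in femur, 5.69 in maxilla and 5.32 in mandible. Both jaw bones were above the others, and the difference was 0.52 ± 0.24 (limma adjusted p = 0.228). Rpl27a of the large subunit measured 3.06, 2.86, 3.43 and 3.47 (0.49 ± 0.20, limma adjusted p = 0.188). Rpl22l1, a paralog of Rpl22, measured 4.57, 4.53, 4.98 and 4.96, with the bones of each class nearly alike (0.42 ± 0.19, limma adjusted p = 0.215). Rps14, whose loss is known from the anaemia of the 5q- syndrome, measured 7.66, 7.54, 8.13 and 7.86 (0.40 ± 0.22, limma adjusted p = 0.281). Rpl30, which also binds selenoprotein messages, measured 3.93, 4.08, 4.56 and 4.23 (0.39 ± 0.23, limma adjusted p = 0.307). With the mean of all tested probes of a gene in place of the brightest, Rpl22l1 differed by 0.06 and Rpl27a by 0.12, as their second probes gave -0.31 and -0.26. By the brightest probe, all 5 were highest in a jaw bone, and the classes did not overlap for any of these 5. Both are likely for genes picked as the 5 highest differences, and 31.9% of all genes lay above in both jaw bones.

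**Figure D4:**
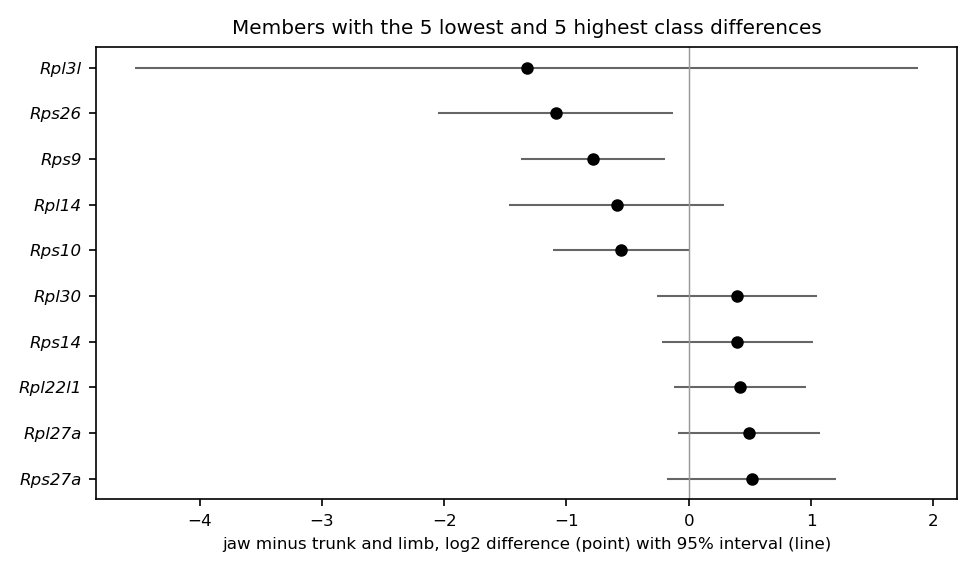
Log2 difference between jaw bones and trunk and limb bones (points) with 95% intervals from limma (lines) for the 5 ribosomal protein genes with the lowest and the 5 with the highest difference. The intervals of Rps26 and Rps9 lie below 0 before adjustment for the number of genes, those of the other 8 genes include 0, and that of Rpl3l is the widest, from -4.53 to 1.87.

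Leaving out 1 jaw bone changed the calls. Without the mandible, limma called 4 of the 77 genes, all lower in the maxilla than in the trunk and limb bones, against 39.8% of all genes then called. In that fit the jaw is the maxilla alone, so the spread came from ilium and femur only and the lone maxilla was assumed to vary like them. They were Rpl3l (-2.84, adjusted p = 0.00692), Rps26 (-1.47, adjusted p = 0.0144), Rps9 (-0.89, adjusted p = 0.0354) and Rpl14 (-0.92, adjusted p = 0.0361). With all 4 bones kept, the limma adjusted p ran up to 0.527 for Rpl3l and 0.346 for Rpl14 (no filter on background). It ran up to 0.191 for Rps26 and 0.189 for Rps9 (quantile normalization). Without the maxilla, where the mandible alone stood for the jaw, 0 of the 77 genes were called, against 29.9% of all genes. The difference was then 0.19 for Rpl3l, -0.70 for Rps26, -0.67 for Rps9 and -0.26 for Rpl14.

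Maxilla and mandible were compared by size only, as each has 1 array. Of the 77 genes, 53 were above in the maxilla by the main values, against 45.5% of all genes. Their median difference was 0.13, against -0.07 for all genes, but it became -0.12 with median centring and -0.14 in the deposited series table. Relative to the median of all genes it was 0.20 in the main values, which median centring cannot change, and 0.18 with quantile normalization. It was 0.06 with another background correction (normexp) and 0.02 when no filter on background was set. Past 1.5-fold there was 1 gene above (20.9% of all genes), Rpl21, with 2.08 in the maxilla and 1.18 in the mandible. The sign for Rpl21 rested on the probe, as a second, dimmer probe gave a difference of -0.26. There were 3 genes below past 1.5-fold (19.1% of all genes), Rpl3l (-3.04), Rps26 (-0.77) and Rpl14 (-0.66). Past 2-fold, Rpl3l alone remained below (8.45% of all genes) and 0 genes lay above (13.8%). After Rpl21 the highest were Rps27l, a paralog of Rps27 that p53 induces, at 0.57, and Rpl10 at 0.49.

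Ilium and femur, also with 1 array each, were closer still. The median difference was 0.04, against -0.05 for all genes, and 53 of 77 genes were above in the ilium, against 42.3% of all genes. That median of the family was 0.065 with median centring, 0.010 with the mean of probes and 0 with quantile normalization. None of the 77 genes passed 1.5-fold in either direction, against 6.72% of all genes above and 6.36% below, nor did any pass 2-fold (2.47% and 1.72%). The highest differences were 0.34 for Rpl21, 0.21 for Rpl27a and 0.21 for Rpl12, and the lowest were -0.31 for Rpl7a, -0.19 for Rps27a and -0.15 for Rpl30. For Rpl21 the second probe gave -0.18 here. In absolute size the median was 0.06 here and 0.24 for maxilla against mandible. For all genes it was 0.19 and 0.45, so these too differed less between ilium and femur.

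Several ribosomal protein genes have paralogs, and 0 of 6 measured here were called, against 11.8% of all genes (Rpl10l was not among the genes tested). Beside Rpl3l and Rpl22l1, Rps27l measured 4.63, 4.58, 5.01 and 4.44 in ilium, femur, maxilla and mandible, and Rps27 measured 7.41 in the maxilla and 6.95 in the femur with the others between, so that the maxilla was highest for both. Rpl7l1 measured 1.20, 1.27, 1.05 and 1.60, and Rpl7 measured 6.19, 6.18, 6.40 and 6.06, so that the mandible was highest for the paralog and lowest for Rpl7. Rps4l and Rpl39l are paralogs too, but the files list their probes under RIKEN clone names, so the naming rule did not take them. Rps4l measured 1.89, 1.42, 2.50 and 2.66, both jaw bones above the others (0.93 ± 0.26, limma adjusted p = 0.101), and its parent Rps4x measured 6.46, 6.42, 6.87 and 6.49 (0.24 ± 0.23). Rpl39l, best known from the testis, measured -0.58, -0.81, -1.10 and 0.46, highest in the mandible, and Rpl39 measured 5.35, 5.41, 5.48 and 5.57. Rpl22, the parent of Rpl22l1, measured 6.03, 6.02, 5.86 and 5.54, with both jaw bones below the others (-0.32 ± 0.22, limma adjusted p = 0.369). The sign rested on the probe for both: a second probe gave 0.87 for Rpl22, and one on another transcript gave -0.31 for Rpl22l1. Rpl10 measured 6.06, 5.97, 6.24 and 5.75, but this probe lies on mm8 chromosome 13 while the gene lies on chromosome X, and which copy it reads was not tested. It was the 1 probe of 129 compared that lay on another chromosome than its gene, and another Rpl10 probe on chromosome X gave a difference of 0.07 against -0.02.

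The 9 genes of the anaemia list are mutated in Diamond-Blackfan anaemia. Of these, 0 of 9 were called, against 11.8% of all genes, and their median difference was -0.00, beside -0.03 for all genes. Rps19, the gene most often mutated, measured 6.73 in ilium, 6.67 in femur, 6.14 in maxilla and 6.38 in mandible (-0.43 ± 0.21, limma adjusted p = 0.236). It lay below in both jaw bones, as did Rps26 and Rps10, or 3 of 9 genes, where 36.3% of all genes did so. Rpl11 and Rps7 lay above in both jaw bones, or 2 of 9, against 31.9% of all genes. The Rps19 probe used here was not built on a RefSeq messenger RNA. A dimmer Rps19 probe that was built on one gave -0.17. Rpl11 and Rpl5, which bind Mdm2 together with the 5S ribosomal RNA, differed by 0.35 ± 0.23 and 0.11 ± 0.22. Rps7 differed by 0.26 ± 0.23, and Rps24 and Rpl35a differed by 0.03 and -0.04. Of the 9 genes, 5 had a negative and 4 a positive difference. The erythroid genes given above were lower in the jaw, and their part in these values was not tested.

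The 5 ribosomal protein genes used as references in PCR all had a range under 0.5 over the bones. So did 75.3% of the whole family, so this does not set the 5 apart from it, and 18% of all genes. Rpl13a measured 5.99, 6.00, 5.78 and 5.84, with both jaw bones slightly below. Rpl19 had a range of 0.288, Rpl32 of 0.322, Rps29 of 0.169 and Rps18 of 0.450. Rps18 had the widest of these ranges, with 7.66, 7.71, 8.11 and 7.86. The differences between jaw and trunk and limb bones ran from -0.19 ± 0.19 for Rpl13a to 0.30 ± 0.21 for Rps18. Of the 5, 0 were called, against 11.8% of all genes.

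Of 8 ribosomal protein genes whose names lie outside the rule, 0 were called, against 11.8% of all genes. Their median difference was -0.11, beside -0.03 for all genes. Rplp0, the base of the ribosomal stalk, measured 6.66, 6.87, 7.10 and 6.65, and the classes overlapped. Rplp1 and Rplp2, the other stalk proteins, differed by 0.24 ± 0.27 and -0.10 ± 0.19. Rpsa, also known as a laminin receptor, was the lowest at -0.35 ± 0.21. Fau, whose small subunit protein is made as a fusion with a ubiquitin-like protein, differed by -0.11 ± 0.20, Rack1, a signalling scaffold on the small subunit, by 0.02 ± 0.21, and Rpl36al by -0.19 ± 0.33.

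Genes that act with the ribosome were set beside the family, and the counts called in these lists stand beside 11.8% of all genes. Elongation factors and other messages with a terminal oligopyrimidine tract had a median difference of -0.00 over 14 genes, with 0 called. It was 0.19 with quantile normalization and -0.25 with median centring. The most different were Eif3f, an initiation factor subunit (-0.52 ± 0.20), Eef1d, a nucleotide exchange factor of elongation (-0.44 ± 0.25), and Eef1a1, the main elongation factor (0.37 ± 0.24). Mitochondrial ribosomal proteins, made by nuclear genes for another ribosome, had a median of -0.17 over 78 genes, with 0 called, and the lowest was Mrpl18 at -1.02. That median was -0.04 with quantile normalization and -0.43 with median centring.

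The 24 genes of ribosome biogenesis process ribosomal RNA and assemble the subunits. Of these genes 22 had a negative difference (51.3% of all genes did) and 17 lay below in both jaw bones without overlap (36.3% of all genes), with a median of -0.43, beside -0.03 for all genes, and 0 were called. The median was negative in every alternative, from -0.69 to -0.31. Dkc1, the pseudouridine synthase of box H/ACA particles, measured -0.97, -0.91, -2.41 and -1.89 in ilium, femur, maxilla and mandible, so that both jaw bones were below (-1.21 ± 0.27, limma adjusted p = 0.0694). Bysl, needed for small subunit assembly, differed by -1.03 ± 0.27, and Gar1, a partner of Dkc1, by -0.92 ± 0.31. Cell cycle genes moved with these genes: 8 of 12 were lower in the jaw by limma, with a median of -2.49, and they summed to 178 and 211 in ilium and femur against 24.7 and 45.6 in maxilla and mandible. All 12 were above background in every bone, and the part of dividing cells in the biogenesis values was not tested.

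Genes that control ribosome production and translation gave a median of -0.36 over 10 genes, with 0 called. It was -0.21 with quantile normalization, -0.58 with the mean of probes, -0.62 with median centring or in the series table, and -0.64 with the names in the files. Myc, which drives ribosome biogenesis, measured 1.82, 2.05, 0.39 and 0.87, below in both jaw bones (-1.30 ± 0.27, limma adjusted p = 0.0624). Mycn measured -2.97, -2.49, -2.13 and 0.27, with the mandible far above the rest (1.80 ± 0.91, limma adjusted p = 0.253). Eif4ebp2, a repressor of cap-dependent initiation, differed by -1.22 ± 0.22 (limma adjusted p = 0.0505). It passed the threshold in several alternatives, with normexp among them (-1.20, adjusted p = 0.0392). Without the mandible, 23 genes of these 4 lists were called, against 39.8% of all genes, and without the maxilla 5, against 29.9%. In both fits 1 array stood for the jaw and the spread came from ilium and femur only.

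Different probes of 1 ribosomal protein gene often disagreed. For 39 genes several probes were tested. Their probes had 1 sign in 17 genes, and in 15 genes the differences spanned more than 0.5, with a median span of 0.40. Some changes of sign were small beside the family's median SE of 0.21, such as Rpl10 (-0.02 and 0.07) and Rpl34 (-0.05 and 0.10). With each probe as its own feature, 0 of 127 probes were called, against 12.8% of 31117 probes. An unadjusted limma p under 0.05 was found for 10 of the 127, where 34.3% of all genes passed it in the gene-level test. Probes built on a RefSeq messenger RNA had a median difference of -0.02 (111 probes), and those built on another transcript had one of -0.29 (16 probes, 13 negative).

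**Figure D5:**
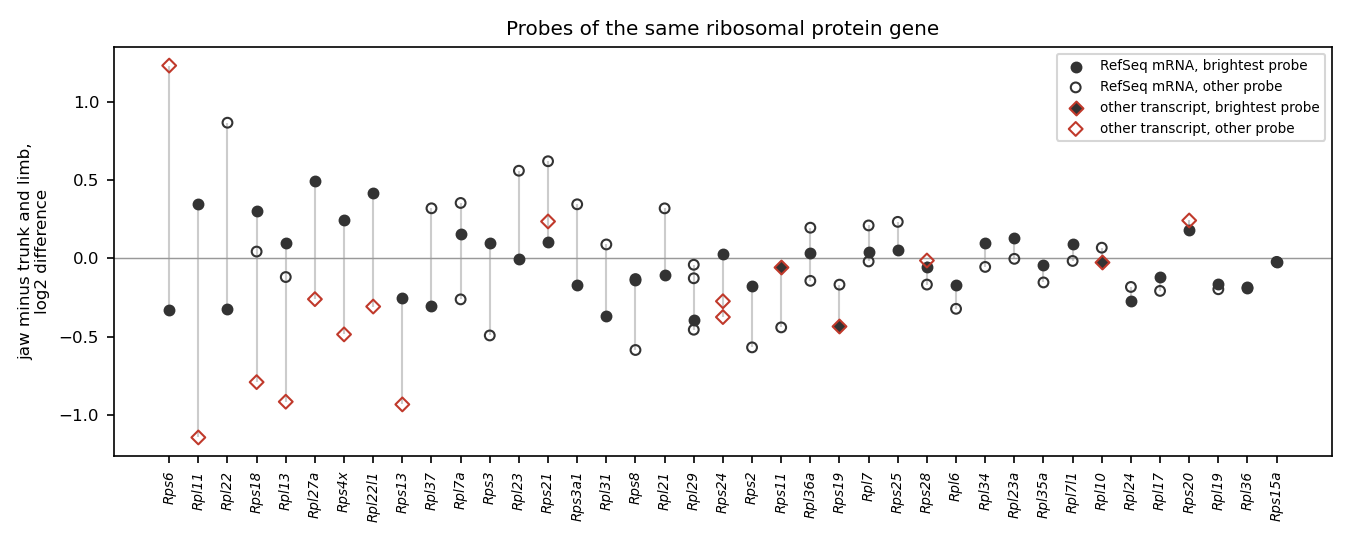
Log2 difference between jaw bones and trunk and limb bones (vertical axis) for each tested probe of the 39 ribosomal protein genes with several probes, ordered by the span between probes. Circles are probes built on a RefSeq messenger RNA, diamonds those built on another transcript, and filled symbols mark the brightest probe of a gene. The widest spans are those of Rps6, Rpl11 and Rpl22.

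The largest span was that of Rps6, the small subunit protein phosphorylated by the S6 kinases. Its brightest probe measured 5.59, 5.67, 5.37 and 5.24 in ilium, femur, maxilla and mandible, a difference of -0.33, and a second probe, on another transcript, measured -5.05, -5.07, -3.26 and -4.39, a difference of 1.23. Rpl11 gave 0.35 with its brightest probe and -1.14 with a dimmer probe on another transcript (6.30 and 0.46 in the ilium). For Rpl22, both probes were built on the same RefSeq messenger RNA, and they differed by -0.32 and 0.87. The second Rpl22 probe measured 2.16, 1.98, 2.71 and 3.16, with both jaw bones above, where the first had them below. Rps18 gave 0.30, 0.04 and -0.79, and Rpl13 gave 0.10, -0.12 and -0.92, in each case with the last value from a probe on another transcript. Those last probes were dim, at -2.35 for Rps18 and -1.28 for Rpl13 in the ilium, where the brightest gave 7.66 and 6.64. Values of single genes above are those of the brightest probe.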

How the data were processed

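Per the labels, RNA of 4 bones was hybridised to Agilent whole mouse genome arrays, 1 array a bone. The deposited scanner files give linear spot intensity from Agilent Feature Extraction 9.5.3.1, background-subtracted and detrended, per the file headers. The deposited series table holds log2 values, which match the scanner values as ratios to the ilium, shifted by 1 constant an array (99.9% or more of probes agree within 0.001), and was used as an alternative; how the constants were chosen is not given in the sources used here. Column medians are 0, 0.0232, -0.217 and -0.133 in ilium, femur, maxilla and mandible. Probe positions are those of mm8.

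Values are log2 of the processed signal minus the array's 75th percentile. Outlier spots were left out and the rest averaged, and the probe with the highest mean stood for a gene. Probes were named through a RefSeq table of GRCm38.p6 (24375 by accession, 6301 by symbol, 2426 by older symbol; 8072 kept the name in the file). Genes above background on 2 or more arrays (20617) were tested with limma 3.58.1 in R 4.3.3 (lmFit, eBayes, Benjamini-Hochberg, threshold 0.05), with 2 residual and 1.76 prior degrees of freedom. The script was tested on simulated data.

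All 4 arrays came from 1 slide, so position on it and bone cannot be told apart. Precision is limited by the number of arrays. The genes and lists were chosen with earlier results of these data known. Named genes are the 5 highest and 5 lowest class differences, the 3 extremes of the other comparisons, the paralogs with their parents, the anaemia, reference and outside lists, the 5 widest probe spans, and up to 3 genes of other lists. Protein sequences were not used here, and values of some genes are not reported here.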

Additional observations from a re-analysis of the deposited data

How the results depend on the processing

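No ribosomal protein gene was called in any of the 10 alternatives of scaling, background, filter, probes or naming. Fits that leave out 1 bone keep 1 array in a class, so their calls are no measure of how stable this result is. The median class difference of the family was -0.27 with median centring and -0.28 in the series table (large subunit -0.28 and -0.29, small subunit -0.26 and -0.26), where the median of all genes was -0.28. Quantile normalization gave 0.10 for the large subunit and 0.19 for the family relative to all genes. Genes below and above without overlap numbered 54 and 7 with median centring and in the series table, and 13 and 37 with quantile normalization. Shares of all genes are not given beside these counts. Leaving out 1 bone gave medians from -0.09 to 0.06, and relative to all genes from -0.05 to 0.09. It gave 29 to 48 genes below and 20 to 40 above without overlap, but a class of 1 bone makes non-overlap easier to reach. Medians then ran from -0.10 to 0.06 for large and -0.09 to 0.02 for small subunit genes. Between maxilla and mandible the median was -0.12 with median centring, -0.14 in the series table and 0.010 with quantile normalization, and relative to all genes 0.058 with normexp and 0.024 without a filter. In the 4 translation lists 1 gene, Eif4ebp2, was called with normexp, median centring, the filter on all 4 arrays and every probe as its own feature, and 0 to 23 were called when 1 bone was left out. Rpl3l reversed without the maxilla, to 0.19, and was -2.84 without the mandible. The cause was not tested. No paired analysis was possible because each bone has 1 array and no class shares numbered pairs.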

Other observations

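Several genes share the Rps letters but encode no ribosomal protein. Rps6ka1, a kinase of the MAP kinase pathway, measured 3.30 in ilium, 3.39 in femur, 1.28 in maxilla and 1.29 in mandible, and was lower in the jaw bones (-2.06 ± 0.19, limma adjusted p = 0.0325). Rps6ka6 stood well above background in both jaw bones and in neither of the others, at -4.43 in the maxilla and -4.60 in the mandible. Rps6kb1, the S6 kinase that phosphorylates Rps6, measured 0.22, 0.31, 0.37 and 0.36 (0.10 ± 0.19), and Rps6kb2 measured -1.47, -1.20, -2.40 and -2.15 (-0.94 ± 0.23, limma adjusted p = 0.0811). Rps19bp1 measured 2.32, 2.31, 2.34 and 2.37, with a difference of 0.04 ± 0.19. These genes were chosen after their values were seen.

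Rpl38, which is known for its part in the translation of Hox messages and is mutated in tail-short mice, was also chosen after its values were seen. It measured 6.77 in ilium, 6.74 in femur, 7.17 in maxilla and 6.93 in mandible, so that both jaw bones lay above the others (0.30 ± 0.21, limma adjusted p = 0.379).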
